A study of Mus musculus with 12 samples.

Results

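A set of 10 genes for transcription factors that mark fibroblasts or drive skeletal development, listed by name, were examined in the border zone of mouse myocardial infarcts. They are Runx1, Runx2, Meox1, Meox2, Tcf21, Sox9, Twist1, Prrx1, Osr1 and Tbx18. All 10 of the 10 listed genes were measured, among 20416 genes on the arrays, through 70 probesets to which the platform annotation gives the symbol of that gene and no other. The mice were C57BL/6J, 12 weeks of age. The series sets injured mouse hearts beside injured zebrafish hearts, and only its mouse arrays were analysed here. Tissue was taken 2 weeks after surgery, at the edge of the infarct (6 infarcted samples) or at the matching site after sham surgery (6 sham samples). The samples of a group are described as biological replicates, and whether 1 sample is 1 heart or a pool is not given in the sources used here. No genetic change or drug is given for either group, and how the infarct was made is not described in the labels. Each sample is 1 one-colour array, and all values are log2 signals, so a difference of 1 is a 2-fold change. The gene-level value of an array is the median over the probesets of the gene.

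As background, these factors belong to several DNA-binding families. The RUNX proteins bind DNA together with the partner CBF-beta. Runx1 is best known for the formation of blood stem cells and Runx2 for that of bone-forming osteoblasts, while Sox9 drives cartilage formation. Twist1 and Tcf21 are basic helix-loop-helix proteins, Prrx1, Meox1 and Meox2 carry a homeodomain, Osr1 is a zinc-finger protein and Tbx18 a T-box protein. In the heart, Tcf21 and Tbx18 are expressed in the epicardium and in cells derived from it, and Tcf21 marks resident fibroblasts, the cells that make scar matrix after an infarct.

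The samples had the profile of heart muscle. The mean level of 12 cardiomyocyte markers lay between 12.96 and 13.00 in sham arrays and between 12.83 and 12.94 in infarcted arrays. Array medians lay between 6.997 and 7.026 in sham and between 7.045 and 7.058 in infarcted arrays, and pairs of arrays correlated between 0.956 and 0.979. Infarcted replicates 4 and 5 stood apart in the mean level of 11 atrial and adipocyte markers. They had 6.48 and 7.12, against 5.23 to 5.73 in the other infarcted and 5.23 to 5.68 in the sham arrays. The 2 kinds of marker differed between them. For atrial markers replicate 4 had 7.69 and replicate 5 had 6.64, near infarcted replicate 6 (6.33) and sham replicate 4 (6.24). For adipocyte markers replicate 5 had 7.40 and replicate 4 had 5.79, near infarcted replicate 3 (5.68). Results are given without infarcted replicates 4 and 5 wherever a call changed.

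The 250 bases before the annotated starts of Runx1, Runx2 and Meox2 are shown because these genes belong to the paralogue pairs, Runx1 with Runx2 and Meox1 with Meox2, whose responses are compared further on. The letters are RefSeq's (GRCm38.p6), written on the strand of the gene. For Runx1 a distal and a proximal start are listed. The Runx2 window lies partly within the annotated gene, which extends to position 44814797. Capitals mark RUNX motifs (TGTGGT or TGCGGT) and E-boxes (CANNTG), the motif bound by Twist1 and Tcf21 with their partners, on either strand.
Runx1, distal start (chr16:92826075-92826324, minus strand): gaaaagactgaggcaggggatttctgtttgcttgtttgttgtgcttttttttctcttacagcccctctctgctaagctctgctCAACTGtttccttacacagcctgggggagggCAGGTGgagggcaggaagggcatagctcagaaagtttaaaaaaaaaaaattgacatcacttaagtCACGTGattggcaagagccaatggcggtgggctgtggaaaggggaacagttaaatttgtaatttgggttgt
Runx1, proximal start (chr16:92697330-92697579, minus strand): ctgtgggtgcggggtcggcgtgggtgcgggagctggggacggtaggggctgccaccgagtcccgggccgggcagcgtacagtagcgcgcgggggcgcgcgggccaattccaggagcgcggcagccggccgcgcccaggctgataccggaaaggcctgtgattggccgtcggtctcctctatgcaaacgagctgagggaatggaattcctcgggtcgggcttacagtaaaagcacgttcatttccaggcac
Runx2 (chr17:44814628-44814877, minus strand): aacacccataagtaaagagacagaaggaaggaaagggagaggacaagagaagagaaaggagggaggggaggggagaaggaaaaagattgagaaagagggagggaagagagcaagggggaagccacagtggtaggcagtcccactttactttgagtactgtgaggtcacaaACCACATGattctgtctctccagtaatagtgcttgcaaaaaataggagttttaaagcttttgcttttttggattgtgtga
Meox2 (chr12:37108290-37108539, plus strand): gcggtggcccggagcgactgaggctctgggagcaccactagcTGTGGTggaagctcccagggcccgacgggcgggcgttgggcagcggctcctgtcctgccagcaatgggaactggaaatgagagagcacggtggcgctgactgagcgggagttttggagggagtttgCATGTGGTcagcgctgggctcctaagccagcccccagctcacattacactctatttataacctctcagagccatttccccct
The distal Runx1 sequence holds 3 E-boxes and 2 CG dinucleotides. The proximal one holds none of either motif and 27 CG dinucleotides, against a median of 6 over the 32851 promoters in the table. Runx2 holds 1 RUNX motif and 1 E-box, which overlap, and no CG dinucleotide. Meox2 holds 2 RUNX motifs and 1 E-box, and the second RUNX motif overlaps the E-box. Among all promoters 18.6% hold a RUNX motif and 66.2% an E-box in the same window. These matches describe the letters and are not binding sites. For Meox1, Sox9 and Osr1 no sequence is shown.

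Of the 10 genes, 8 rose in the infarcted border zone and none fell (limma, adjusted p under 0.05), whereas 10.1% of all genes were called higher and 10.2% lower (20.3% in either direction). The 10 genes were chosen with earlier results of these data known. The shares over all genes are therefore given for scale and are not a test of the set. The median change of the 10 genes was 0.66, beside -0.04 over all genes tested. Runx1 (4.17-fold), Meox1 (3.22-fold), Sox9 (2.72-fold) and Tcf21 (2.01-fold) rose at least 2-fold. With probesets averaged instead of their median taken, Meox1 (1.92 on the log2 scale) came before Runx1 (1.68) and Sox9 (1.62). By comparison, 1.28% of all genes rose at least 2-fold and passed the test. Osr1, Twist1, Tbx18 and Runx2 rose between 1.29-fold and 1.67-fold. Of these, Twist1 lost its call when probesets were averaged (0.11, adjusted p = 0.301) and Runx2 without infarcted replicates 4 and 5 (adjusted p = 0.0619). The fits for Prrx1 and Meox2 did not pass. In 8 of the 10 genes, all but Runx2 and Meox2, every infarcted array lay above every sham array, which held for 5.99% of all genes. In none did every infarcted array lie below every sham array, the case for 5.29% of all genes, and the groups were apart in either direction for 11.3%. In tissue samples such as these, more cells that express a gene and more RNA per cell cannot be told apart.

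**Figure D1:**
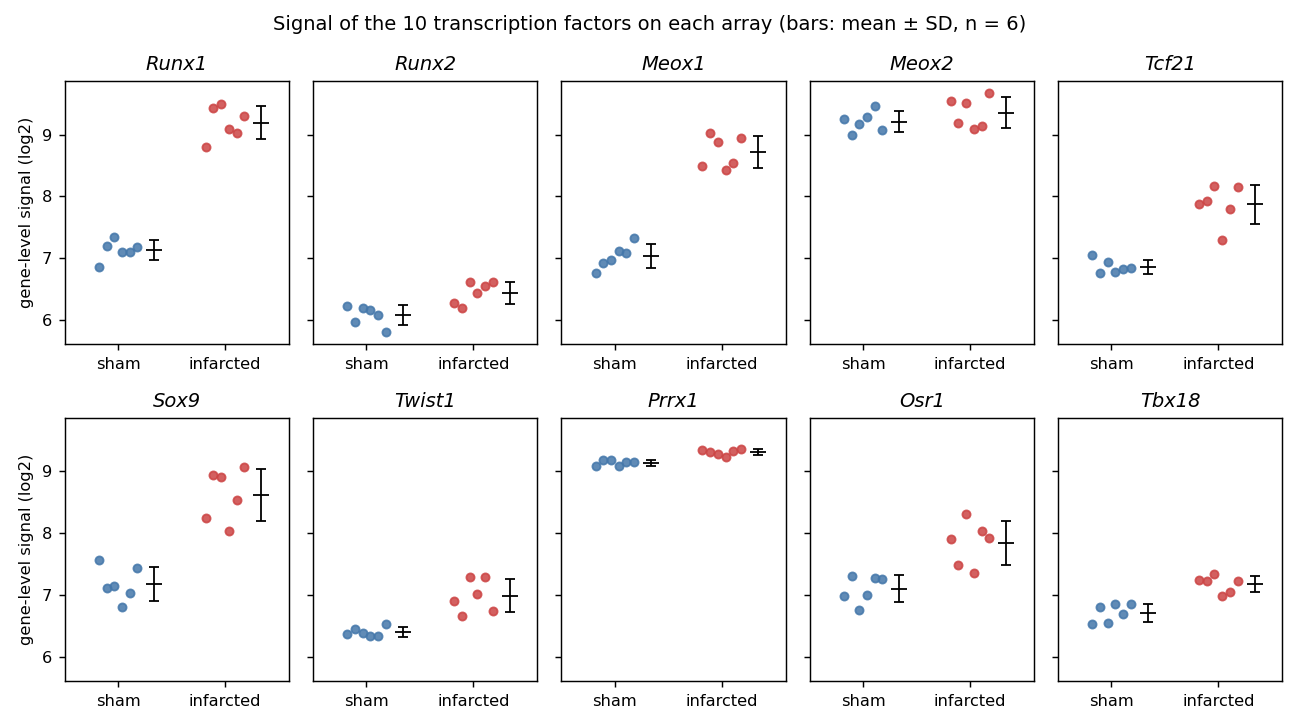
Gene-level log2 signal (vertical axis) of the 10 transcription factors on each of the 6 sham (blue) and 6 infarcted (red) arrays, with black bars for the mean ± SD. Runx1, Meox1 and Sox9 show wide gaps between the groups, the Prrx1 groups lie close together without overlap, and the groups of Runx2 and Meox2 overlap.

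The 2 RUNX genes moved to very different extents. Runx1 signal ran from 6.86 through a median of 7.14 to 7.34 in sham arrays and from 8.80 through 9.19 to 9.50 in infarcted arrays. The lowest infarcted array thus lay 1.46 above the highest sham array. Its mean rose from 7.13 ± 0.16 to 9.19 ± 0.27 (SD, n = 6), a change of 2.06 (95% interval 1.81 to 2.31; limma adjusted p = 4.45e-08). Runx2 signal ran from 5.80 through 6.12 to 6.23 in sham arrays and from 6.20 through 6.49 to 6.61 in infarcted arrays. Here the groups touched, since infarcted replicate 2 lay below sham replicates 1 and 3. Its change was 0.37 (95% interval 0.16 to 0.58; limma adjusted p = 0.0145). The call for Runx2 ended without infarcted replicates 4 and 5 (0.35, adjusted p = 0.0619), and the change was 0.24 when dim probesets were left out (adjusted p = 0.0306).

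The difference between the paralogues was tested within arrays. Runx1 minus Runx2 was between 0.63 and 1.38 (median 1.08) in sham arrays and between 2.48 and 3.23 (median 2.67) in infarcted arrays. All infarcted arrays were therefore above all sham arrays, and the rise of Runx1 exceeded that of Runx2 by 1.69 ± 0.15 (SE; exact two-sided permutation test, p = 0.00216, adjusted p = 0.00541 over 45 pairs of the 10 genes). This is the smallest p that the 924 splits of the arrays can give.

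Meox1 and Meox2, homeobox genes of the somites, showed the same kind of contrast. Meox1 has been linked to fibroblast activation under pressure overload, and Meox2 to growth arrest in vascular cells. Meox1 signal ran from 6.77 through 7.03 to 7.33 in sham arrays and from 8.43 through 8.71 to 9.03 in infarcted arrays. Its groups were separated by 1.11, and the change was 1.69 (95% interval 1.43 to 1.95; limma adjusted p = 3.77e-07). Meox2 signal ran from 8.99 through 9.21 to 9.47 in sham arrays and from 9.08 through 9.35 to 9.67 in infarcted arrays. Only 3 of the 6 infarcted arrays lay above the sham mean, and the difference of 0.15 had an interval of -0.10 to 0.40 (adjusted p = 0.417). The interval reaches up to a 1.32-fold increase. Without infarcted replicates 4 and 5 the difference was 0.27 and did not pass either (adjusted p = 0.143). Meox1 minus Meox2 was between -2.49 and -1.75 (median -2.19) in sham arrays and between -1.06 and -0.15 (median -0.64) in infarcted arrays. The rise of Meox1 exceeded the difference in Meox2 by 1.54 ± 0.16 (SE; exact two-sided permutation test, p = 0.00216, adjusted p = 0.00541).

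**Figure D2:**
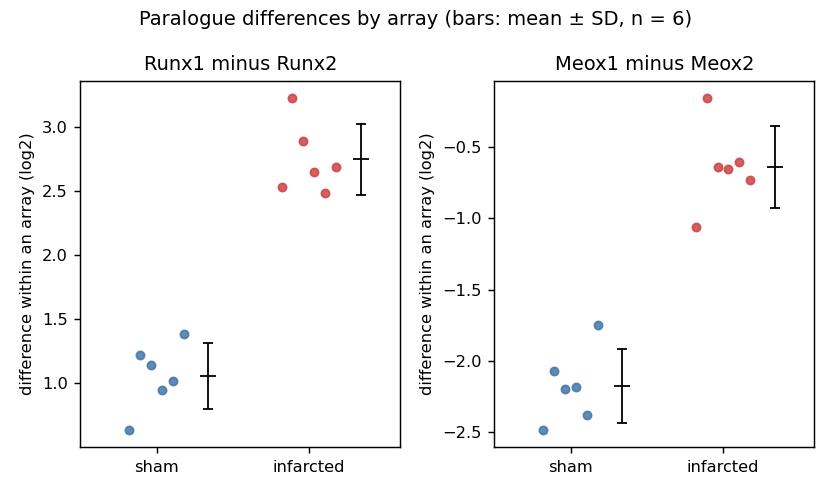
Difference of the log2 signals of 2 paralogues within each array (vertical axis) for Runx1 minus Runx2 and Meox1 minus Meox2, in 6 sham (blue) and 6 infarcted (red) arrays, with black bars for the mean ± SD. In both panels every infarcted array lies above every sham array, by a mean of 1.69 for the RUNX pair and 1.54 for the MEOX pair.

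Sox9, the cartilage factor, ran from 6.80 through 7.12 to 7.56 in sham arrays and from 8.03 through 8.72 to 9.08 in infarcted arrays. The groups were separated, and the infarcted arrays were spread more widely (SD 0.42) than those of any other of the 10 genes. The change was 1.45 (95% interval 1.06 to 1.83; limma adjusted p = 6.15e-05).

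Tcf21 and Tbx18, the factors of the epicardium and its descendants, both rose. Tcf21 ran from 6.75 through 6.84 to 7.05 in sham arrays and from 7.29 through 7.91 to 8.16 in infarcted arrays. Infarcted replicate 4, at 7.29, lay below the other infarcted arrays (7.80 to 8.16) and still above all sham arrays. The change was 1.01 (95% interval 0.74 to 1.28; limma adjusted p = 6.62e-05). Tbx18 ran from 6.53 through 6.74 to 6.86 and from 6.98 through 7.22 to 7.34. Its change was smaller at 0.47 (95% interval 0.28 to 0.65; adjusted p = 0.00144), and infarcted replicate 4 was again the lowest of its group. The rise of Tcf21 exceeded that of Tbx18 by 0.54 ± 0.13 (SE; exact permutation test, adjusted p = 0.0104).

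Osr1, a factor of the intermediate mesoderm that also marks connective tissue progenitors, ran from 6.76 through 7.12 to 7.31 in sham arrays and from 7.35 through 7.91 to 8.31 in infarcted arrays. The groups were separated by only 0.04. Its change was 0.74 (95% interval 0.41 to 1.06; limma adjusted p = 0.00324), which did not pass as different from that of Tcf21 (Tcf21 higher by 0.27 ± 0.16, SE; exact permutation test, adjusted p = 0.142). With probesets averaged that difference was 0.45 and passed (adjusted p = 0.0295).

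Prrx1, a homeobox gene of limb and craniofacial mesenchyme, ran from 9.08 through 9.15 to 9.19 in sham arrays and from 9.23 through 9.32 to 9.35 in infarcted arrays. The groups did not overlap and each had a small spread (SD 0.05), yet the change of 0.17 (95% interval 0.05 to 0.29) narrowly missed the threshold (limma adjusted p = 0.0506). It passed in 6 other settings, for example with the mean over probesets (0.21, adjusted p = 0.012). With the median of each array set to 0 it missed the threshold more widely (0.12, adjusted p = 0.13). Prrx2, the paralogue of Prrx1, rose from 5.81 to 6.80, a change of 0.99 (adjusted p = 0.000107).

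Over all 45 pairs of the 10 genes, 32 differed in their change (exact permutation tests, adjusted p under 0.05). Runx1 differed from each of the other 9 genes, from Meox1 by 0.37 ± 0.10 (SE, adjusted p = 0.0104). The order of these genes turned with the gene summary. With probesets averaged, Runx1 minus Meox1 was -0.24 ± 0.07 (SE, adjusted p = 0.013), and Runx1 differed from 8 of the 9 genes, not from Sox9 (0.06 ± 0.12, SE, adjusted p = 0.616). Meox1 and Sox9 did not pass as different (0.24 ± 0.17, SE, adjusted p = 0.207 by the exact permutation test), but did with probesets averaged (0.30, adjusted p = 0.00749). Twist1 was not told apart from Tcf21, Runx2, Osr1, Tbx18 or Meox2 by these tests. With probesets averaged it was not told apart from Meox2 and Prrx1 and differed from the other 7 genes.

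The probesets of a gene cover different parts of it, and they did not all change alike. Of the 70 probesets 31 rose and none fell, a share of 44.3% against 6.39% higher and 4.3% lower over all probesets. For Runx1 11 of 12 probesets rose, with changes from 0.45 to 2.52. For Meox1 all 3 rose, by 1.69 to 2.05, and for Tcf21 both rose, by 0.99 and 1.03. For Sox9 6 of 7 rose, and the changes ran from 0.43 up to that of a probeset that went from 6.84 to 9.84. Of the 3 Osr1 probesets 2 rose. Runx2 had 4 of 16 higher, by 0.35, 0.91, 0.94 and 1.46, the last from a dim sham level of 4.71. The changes of all 16 ran from -0.33 to 1.46, a range that overlaps that of Runx1. Prrx1 had 1 of 10 higher, Tbx18 1 of 10 and Meox2 none of 4. The median change of the Tbx18 probesets was 0.39. In simulated data a change of 0.5 was called for only 10% of probesets, against 70% of genes. Few calls among probesets therefore do not show that 1 probeset carried a small change. The only probesets with a difference below 0 belonged to Runx2 (3), Twist1 (2), Prrx1 (1) and Tbx18 (1), and none of these passed.

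**Figure D3:**
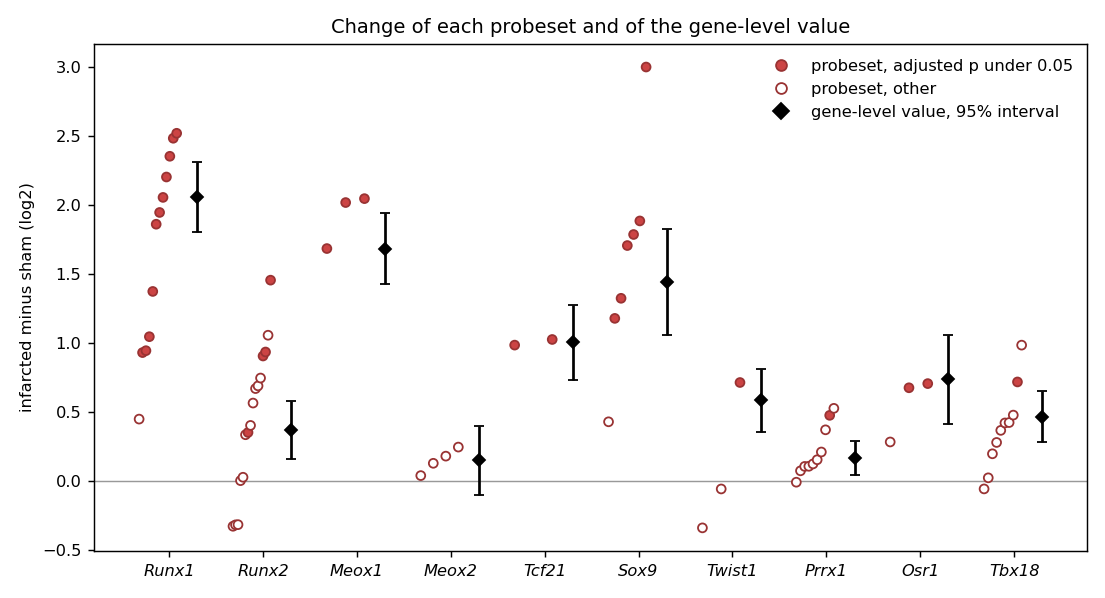
Change from sham to infarcted (log2, vertical axis) of each probeset (circles, filled where the adjusted p is under 0.05) and of the gene-level value (black diamonds with 95% intervals) for the 10 factors. The probesets of Runx1 spread from 0.45 to 2.52 and those of Sox9 from 0.43 to a single point far above the rest, while those of Tcf21 and Meox1 lie close together.

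Unequal change within a gene passed for 5 of the 10 genes, Runx1, Runx2, Sox9, Twist1 and Prrx1 (limma diffSplice, F test), against 9.33% of the 15021 genes tested. In Runx1 (adjusted p = 5.81e-15) 3 probesets changed less than the rest of the gene. They went from 5.44 to 5.88, from 6.37 to 7.30 and from 7.11 to 8.06, and the first of these did not pass on its own. Another 3 changed more than the rest, by 2.35, 2.49 and 2.52. In Sox9 (adjusted p = 2.59e-08) the change of the top probeset exceeded the rest of the gene by 1.62. The lowest probeset went from 7.90 to 8.33, with a difference from the rest of -1.39. In Runx2 (adjusted p = 0.000225) 2 probesets with differences of -0.32 each stood below the others. In Prrx1 (adjusted p = 0.0144) no single probeset passed as different from the rest. The place of a probeset within its gene was not used here, so these parts cannot be assigned to exons or to the distal and proximal starts of Runx1. Saturation and cross-hybridisation of single probesets were not tested.

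The call of Twist1 rests on the way probesets are combined. Its gene-level value ran from 6.34 through 6.38 to 6.53 in sham arrays and from 6.66 through 6.96 to 7.29 in infarcted arrays, a change of 0.58 (95% interval 0.35 to 0.81; limma adjusted p = 0.00146). When its 3 probesets were averaged, the change was 0.11 and did not pass (adjusted p = 0.301). A single probeset carried the rise. It ran from 6.06 through 6.24 to 6.53 in sham arrays and from 6.66 through 6.96 to 7.29 in infarcted arrays, a change of 0.71 (adjusted p = 0.00467).

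The other Twist1 probesets did not pass. One ran from 5.97 through 6.32 to 6.39 and from 6.00 through 6.26 to 6.33, a difference of -0.06 (adjusted p = 0.786). The brightest ran from 7.78 through 8.05 to 8.13 in sham arrays and from 7.24 through 7.68 to 8.04 in infarcted arrays, a difference of -0.34 (adjusted p = 0.14). The probeset that rose gave the gene's median in all 6 infarcted arrays but in only 3 of the 6 sham arrays. Its change exceeded that of the other probesets by 0.91, and the brightest probeset stood at -0.67 from the rest (diffSplice, adjusted p = 0.0002 and 0.0091).

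**Figure D4:**
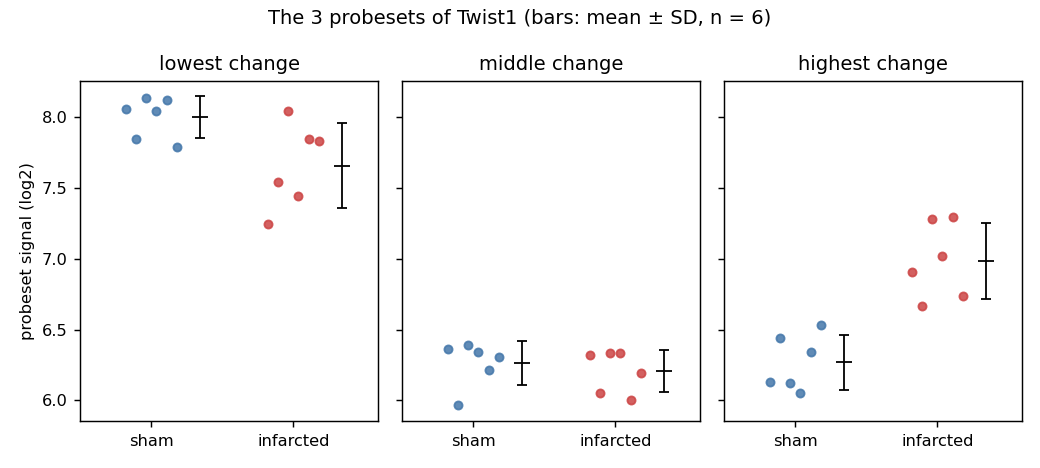
Log2 signal (vertical axis) of the 3 probesets of Twist1, ordered from the lowest to the highest change, on 6 sham (blue) and 6 infarcted (red) arrays, with black bars for the mean ± SD. The groups separate only in the panel on the right, where the change is 0.71.

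Genes that work with these factors were counted from lists, and some genes stand in more than 1 list. Every list count below is to be read beside the shares over all genes tested, 10.1% higher and 10.2% lower. The lists, too, were chosen with earlier results of these data known. Of 9 other RUNX family members and partners 2 rose and none fell, with a median of -0.06. They were Cbfb, the shared DNA-binding partner of the RUNX proteins (0.29, adjusted p = 0.0123), and Tle3, a co-repressor (0.38, adjusted p = 0.00641). Runx3, the remaining RUNX gene, went from 6.67 to 6.88 and did not pass (adjusted p = 0.399). Of 13 partners, relatives and inhibitors of basic helix-loop-helix factors 4 rose and none fell, with a median of 0.21. Id2 and Id3, which bind such factors and keep them off DNA, rose by 0.75 and 0.45 (adjusted p = 0.00123 and 0.0111). Id1 and Id4, also in this list, did not pass (-0.28 and 0.05, limma adjusted p = 0.244 and 0.843). Twist2, the paralogue of Twist1, went from 6.23 to 6.39 (adjusted p = 0.0956).

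Of the 27 matched factors of skeletal development outside the 10 genes 7 rose and none fell, with a median of -0.02. Prrx2 rose most, and Foxc2, a forkhead factor, rose by 0.41 (adjusted p = 0.00341). Sp7, which acts after Runx2 in osteoblasts, was dim (4.99 in sham and 4.84 in infarcted arrays; adjusted p = 0.35). Of 24 other factors of mesenchyme and of epithelial-mesenchymal transition 8 rose and none fell, with a median of 0.21. Tbx20, a cardiac T-box factor, rose by 0.61 (adjusted p = 2.8e-05), and Bnc2, a zinc-finger factor, by 0.84 (adjusted p = 3.11e-05). Wt1, which marks the epicardium, went from 7.52 to 7.52 (adjusted p = 0.978).

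Genes of cartilage and bone matrix were counted beside Sox9 and Runx2. Of 20 cartilage matrix genes 11 rose and 1 fell, with a median of 0.42. Fmod (fibromodulin) and Comp rose by 3.74 each, and Cnmd (chondromodulin) fell by 0.60 (adjusted p = 0.0383). Known targets of Sox9 in this list, named after their values were seen, did not move alike. Acan rose by 1.52 from a dim sham level of 4.54, Col11a1 by 0.82 and Col2a1 by 0.38. Col9a1 (-0.03), Col9a2 (-0.12), Col9a3 (-0.10), Col11a2 (-0.04), Matn1 (-0.15) and Hapln1 (0.07) did not pass. Of 11 bone matrix and mineralisation genes 4 rose and none fell, with a median of 0.15. They were Col1a1 (2.55), Col1a2 (2.04), Spp1 (osteopontin, 4.26) and Tnfrsf11b (osteoprotegerin, 0.90). The collagen genes are expressed by fibroblasts generally. Ibsp, a bone sialoprotein gene, was at 4.06 in sham and 4.26 in infarcted arrays and did not pass (adjusted p = 0.605).

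Most markers of fibroblasts, myofibroblasts and macrophages also rose. Of 15 fibroblast markers 14 rose and 1, Dpep1, fell, with a median of 0.83, and their mean level lay between 8.93 and 9.19 in sham and between 10.01 and 10.36 in infarcted arrays. Mfap5, a microfibril gene, rose by 2.37. Of 10 myofibroblast markers 9 rose and none fell (median 2.69), with mean levels of 7.34 to 7.77 and 9.63 to 10.02. Thbs4 and Ltbp2, both of the matrix, rose by 3.43 and 3.16. Of 16 macrophage markers 15 rose and none fell (median 0.76), with mean levels of 7.41 to 7.69 and 8.20 to 8.72. Lgals3 and Mpeg1 rose by 1.86 and 1.66. Blood cells also express Runx1, and Ptprc, the pan-leukocyte marker, rose from 6.67 to 7.41. The part of these cells in the rise of Runx1 and the other factors was not tested.

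Other marker lists gave fewer calls, beside 10.1% of all genes called higher. Of 9 epicardium markers 1 rose, Aldh1a2 (0.64), and mean levels overlapped between groups (5.61 to 6.17 and 5.69 to 6.88). The level of 6.88 was that of infarcted replicate 5, and the other infarcted arrays lay between 5.69 and 5.99. None of 11 endothelial markers passed (median 0.14; Cdh5 0.24, adjusted p = 0.0759), nor any of 12 cardiomyocyte markers (median -0.09; Myh6 -0.18, adjusted p = 0.0688). The mean level of the cardiomyocyte markers was nevertheless slightly lower in every infarcted array (12.83 to 12.94) than in every sham array (12.96 to 13.00). Of 10 smooth muscle and pericyte markers 4 rose and none fell, among them Cnn1 (1.05) and Pdgfrb (0.51). Of 10 lymphocyte, mast cell and neutrophil markers Kit (0.70) and Cd79b (0.54) rose. None of the 4 atrial and 7 adipocyte markers passed (Myl4 0.98, adjusted p = 0.203; Adipoq 0.71, adjusted p = 0.26).

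**Figure D5:**
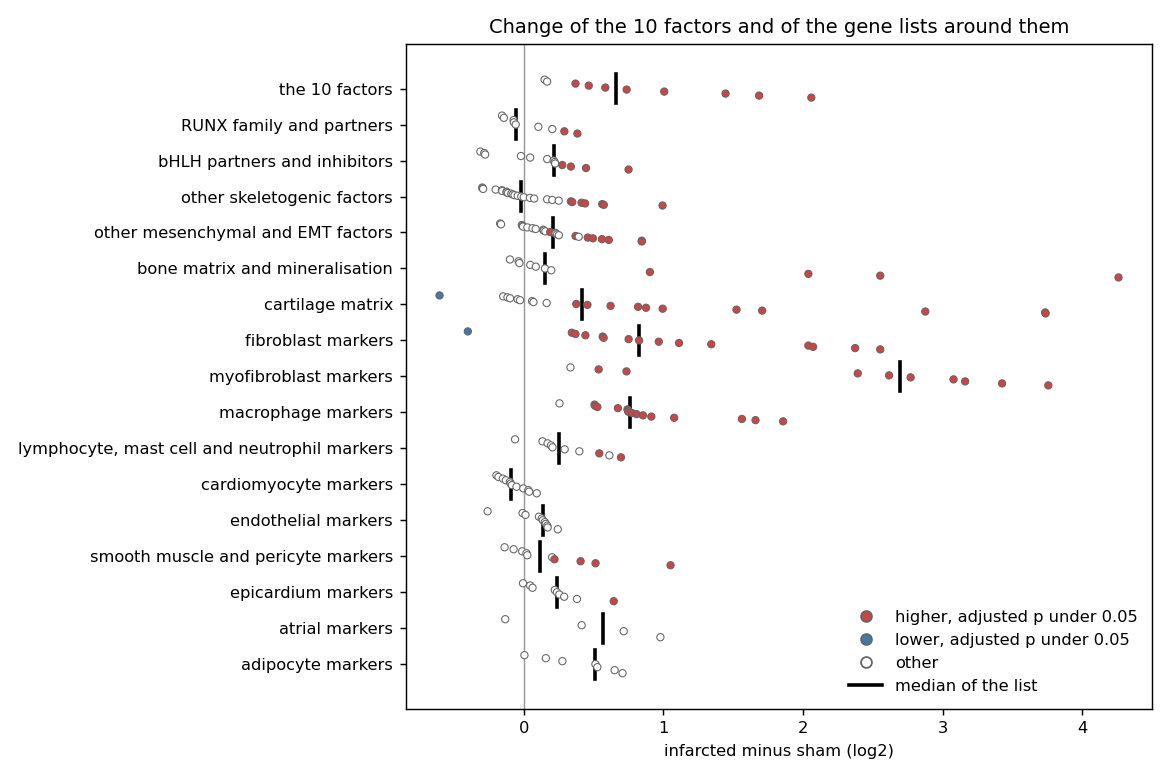
Change from sham to infarcted (log2, horizontal axis) of each gene in the 10 factors and in 16 gene lists around them, with black bars for the median of each list. Points are red where higher and blue where lower at an adjusted p under 0.05, and open otherwise. The 10 factors have a median of 0.66, below the myofibroblast (2.69), fibroblast (0.83) and macrophage markers (0.76) and above the other skeletogenic factors (-0.02).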

How the data were processed

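Affymetrix Power Tools made the values, per the submitters' processing notes. Neither its version nor its summary or normalization method is given in the sources used here. The authors' deposited values are read as log2 signals from their range (1.52 to 14.37), since the log base is not stated. Of 241576 probesets, 212097 have 1 symbol in the platform annotation. They gave 20416 genes, with symbols as annotated and the median over probesets as the gene value. Groups and replicate numbers came from the titles. R 4.3.3 with limma 3.58.1 (lmFit, eBayes and diffSplice) fitted genes and probesets, two-sided, with no block and Benjamini-Hochberg adjustment over the whole table, at a threshold of 0.05. Signal near background makes changes too small. Before diffSplice, probesets whose mean was below 5.58, percentile 30 of the means, were removed. Differences between genes were tested by exact permutation over all splits of the 12 arrays. Fits were tested on simulated data. Figures were drawn with matplotlib 3.10.9. The factors and the gene lists were chosen with earlier results of these data known. All 10 factors were named, with up to 2 genes per list and direction, those with the smallest p, or the smallest p where none passed. Exceptions are Sp7, Runx3, Twist2, Wt1, Id1, Id4, Spp1, Tnfrsf11b, Ibsp, Ptprc and the Sox9 targets, named after their values were seen. Of 204 listed genes 201 were matched, 3 under an older symbol through RefSeq synonyms, and the others were not analysed here. Alternatives changed the gene summary, filters, scaling, weights, block, symbols and arrays left out. With each array centred on its median, 1752 genes were higher and 2961 lower, against 2057 and 2078.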

Additional observations from a re-analysis of the deposited data

How the results depend on the processing

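Runx1, Meox1, Tcf21, Sox9, Osr1 and Tbx18 kept their call in all 10 alternative settings and in all 12 fits with 1 array left out. Prrx1 passed when its probesets were averaged (0.21, adjusted p = 0.012), with dim probesets left out (0.17, adjusted p = 0.0387), with quantile normalization (0.19, adjusted p = 0.0284), with dim genes left out (0.17, adjusted p = 0.031), with a mean-variance trend (0.17, adjusted p = 0.0227) and with array weights (0.17, adjusted p = 0.0451). It did not pass in the other 4 settings (adjusted p up to 0.13) or with any 1 array left out (adjusted p from 0.0515 to 0.103). Twist1 lost its call when its probesets were averaged (0.11, adjusted p = 0.301), as did Runx2 without infarcted replicates 4 and 5 (0.35, adjusted p = 0.0619). Meox2 passed in none of the settings and in no fit with 1 array left out (adjusted p from 0.143 to 0.667). Between genes, averaging the probesets turned Runx1 minus Meox1 from 0.37 to -0.24 (adjusted p = 0.013), and Meox1 minus Sox9 (0.30, adjusted p = 0.00749) and Tcf21 minus Osr1 (0.45, adjusted p = 0.0295) passed. The count of the 10 genes called higher was 7 to 9, and that of pairs that differed 31 to 35. No label ties a replicate number to a pair of a sham and an infarcted sample, so the numbers were not taken as pairs. Deviations of same-numbered arrays from their group means correlated between -0.05 and 0.10, with 2 of 6 arrays closest to their own number. These values cannot exclude a pairing. With a replicate block 8 of the 10 genes were higher, Runx2 at 0.37 (adjusted p = 0.0332), and over all genes 1958 were higher and 1862 lower. The 6 arrays per group limit the precision, and dim signal limits what can be said of genes such as Sp7, Ibsp and Acan.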

Other observations

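Infarcted replicate 4 had the lowest value of its group for 7 of the 10 factors. The share of all genes for which it was lowest was not determined, so this cannot be called particular to these factors. The exceptions among the 10 were Runx1, Runx2 and Twist1, and replicates 3 and 6 each had the highest value for 4 factors. Replicate 4 was not the lowest in the mean level of fibroblast markers (10.09, against 10.01 to 10.36 over the group) or of macrophage markers (8.38, against 8.20 to 8.72). Its atrial and adipocyte marker level of 6.48 was above 4 of the other 5 infarcted arrays.

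Within the 6 infarcted arrays, each factor was set against the mean level of the fibroblast, macrophage, and atrial and adipocyte markers, which made 30 relations. None passed after adjustment (exact permutation over 720 orderings), and 3 had an unadjusted p under 0.05 for Pearson's r. Runx1 had r = 0.28 with the macrophage markers (p = 0.599, adjusted p = 0.748, exact permutation). Without the 2 arrays farthest from the median of these markers, r was 0.65. Runx2 correlated with the macrophage markers (r = 0.93, p = 0.00833, adjusted p = 0.208; Spearman's rho = 0.83, p = 0.0583, adjusted p = 0.583; exact permutation) and the fibroblast markers (r = 0.91, p = 0.0139, adjusted p = 0.208; rho = 0.94, p = 0.0167, adjusted p = 0.5; exact permutation). Without the 2 arrays farthest from the median of the markers, r was 0.91 and 0.96. Osr1 correlated with the macrophage markers (r = 0.82, p = 0.0458, adjusted p = 0.425; rho = 0.83, p = 0.0583, adjusted p = 0.583; exact permutation), with r = 0.55 without such arrays. Tbx18 had a negative r with the atrial and adipocyte markers (-0.80, p = 0.0708, adjusted p = 0.425; rho = -0.71, p = 0.136, adjusted p = 0.583; exact permutation), which rested on 2 arrays, since r was 0.25 without them.

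The other promoters in the table gave few matches. Prrx1 held the homeodomain motif TAATTA, the motif its own family binds, 1 time in the 250 bases before its listed start, and 4.84% of all promoters held it. That window (163313651-163313900) lies within the annotated gene, which extends to position 163315145. Prrx1 and the proximal start of Runx1 each held 1 match to the TEAD motif GGAATG, as did 12.6% of all promoters. Tbx18 held 1 E-box, and the windows of Tcf21 and Twist1 held no RUNX motif and no E-box. All motifs were searched on both strands.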
